A study of Homo sapiens and Mus musculus with 74 samples.

Results

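The 44 genes described here encode proteins of the cytosolic large (60S) ribosomal subunit in the mouse. They were taken by name from a fixed list of large subunit proteins, and each is represented by 1 transcript, the one that encodes the longest protein, among 22484 genes with a coding transcript in the annotation. All 44 were found in the table of 142604 transcripts. Rpl41, a very short ribosomal protein that is named for the large subunit but now counted with the small one, and whose gene was deleted in the study, was kept out of the list because its change is the genotype itself.

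The study compared wild-type (WT) mice with Rpl41-/- (KO) mice, a constitutive line in which CRISPR-Cas9 in C57BL/6J zygotes had removed the whole coding sequence of Rpl41, so that no tissue could make the protein. The animals were 10 weeks old. Kidney and brain were each profiled by RNA-seq of poly(A) RNA and by Ribo-seq, which sequences the mRNA fragments covered by single ribosomes (ribosome-protected fragments, RPFs), and kidney also by disome-seq, which sequences the longer fragments covered by 2 stacked ribosomes. Each of the 10 groups held 3 libraries from males, 30 in all. Whole organs were used, so that a difference in cell composition and a difference in mRNA per cell cannot be told apart.

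The large subunit joins amino acids at its peptidyl transferase centre and releases the growing chain through an exit tunnel. Around its ribosomal RNA core sit the stalk, which recruits the elongation factors, the 5S particle, the bridges to the small subunit and the proteins around the exit of the tunnel. Mammalian mRNAs for ribosomal proteins belong to the TOP class (terminal oligopyrimidine), which start with a C and a run of pyrimidines, and whose translation is controlled together through the mTOR pathway and the binding protein Larp1. These genes also left an unusually large number of processed pseudogenes, which are intronless copies of their mRNAs elsewhere in the genome, so that short reads from a ribosomal protein mRNA often match several places.

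Both features can be seen in the sequences. Windows of 28 bases, about the length of a ribosome footprint, are shown from the middle of 6 coding sequences. They are shown because the RNA difference between tissues described further on moved with the share of a coding sequence copied elsewhere. The first 3 windows matched no other place in the genome, whereas those of Rpl11 and Rpl24 matched 4 other places and that of Rpl36a matched 3. They are given on the coding strand from the GRCm38 (mm10) genome, in lower case throughout because no base is singled out.
Rpl4: ggggccctgcatcatctataatgaagat
Rpl8: caagctggcccgagcctccgggaactac
Rpl13a: tgccctggagcgcctcaaggtgttggat
Rpl11: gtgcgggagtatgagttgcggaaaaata
Rpl24: tgcagtcaaattccaacgagccatcact
Rpl36a: gtgggcagactaagcctattttccgcaa

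These windows lie in exon 6 of 10 of Rpl4 (chr9:64177009-64177036, plus strand), exon 3 of 5 of Rpl8 (chr15:76904909-76904936, plus strand) and exon 5 of 8 of Rpl13a (chr7:45126733-45126760, minus strand). The copied windows lie in exon 4 of 6 of Rpl11 (chr4:136051275-136051302, minus strand), exon 4 of 6 of Rpl24 (chr16:55969539-55969566, plus strand) and exon 3 of 5 of Rpl36a (chrX:134586547-134586574, plus strand). Across the 44 members, a median of 98.1% of all 28-base windows of the coding sequence occurred at least once more in the genome, from 11.6% to 100%. The same median was 96.1% for 32 small subunit proteins, 50.9% for 16 other TOP mRNAs and 0.03% for 28 factors that assemble the 60S subunit. For windows of 50 bases, the members' median was 92.4%, from 8.86% in Rpl8 to 100% in 18 members.

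The annotated 5′ ends of 4 members began with a C followed by at least 4 pyrimidines, and their first 20 bases are shown because this run defines the TOP class. Capitals mark the run from the first base to the last pyrimidine before the first purine.
Rpl4: CTTTTCCTgtgggagcagcc
Rpl36: CTTCCTgtcccggccgccat
Rpl37: CTCTTCCggtctctttggcc
Rpl37a: CTCTTCggacttgggcttgg

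They start at chr9:64173375-64173394, chr17:56613416-56613435, chr15:5116645-5116664 and chr1:72711290-72711309, all on the plus strand of GRCm38. Such a start was present at the first annotated base in 4 of 44 members (9.1%) and in 2.3% of the 22484 coding genes, and a start of the same kind within the first 6 bases in 8 of 44 members (18.2%) and 10.6% of the genes. An annotated 5′ end can lie several bases or more away from the start that a tissue uses, so the absence of the run in this window says nothing about the mRNA in the cell. The transcripts were chosen by protein length and not by their 5′ ends. The stretch before the coding sequence reached 632 bases in that of Rpl17 and 2375 in that of Rpl18. What this choice contributed to the counts of such starts was not tested.

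RNA-seq libraries held 44998381 to 123745890 counts, Ribo-seq libraries 9498663 to 42452425 and disome-seq libraries 1187636 to 3018963. Rpl41 had 3695 to 12199 counts in the WT RNA-seq libraries and 3 to 12 in the KO ones, and 37 to 85 against 0 to 4 in Ribo-seq and 71 to 154 against 0 to 2 in disome-seq, so the genotype labels matched the counts in every library. The summed level of 6 kidney markers was 12500 to 14900 CPM (the count relative to the scaled size of its library) in WT kidney RNA and 0.469 to 0.617 in brain RNA, and that of 6 brain markers 2753 to 3806 in brain RNA and 9.40 to 16.9 in kidney RNA. Transcripts annotated as processed pseudogenes took 0.0267% to 0.0437% of the counts in the kidney RNA-seq libraries and 1.46% to 1.81% in the brain ones. Their share was 3.63% to 4.21% of brain RPFs, 3.98% to 4.75% of kidney RPFs and 2.89% to 3.27% of disomes. The kidney RNA-seq libraries therefore stood apart from the other 4 kinds in how much of their count fell on copied sequence, and each comparison that uses them against another kind of library carries this difference. The methods describe 1 treatment of reads that match several places for all libraries, and whether it was the same for kidney RNA-seq was not tested.

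The members' summed counts made up 0.191% to 0.375% of a kidney RNA-seq library and 0.347% to 0.467% of a brain one. Among RPFs they made up 0.110% to 0.161% in kidney and 0.104% to 0.132% in brain, and among disomes 0.149% to 0.196%. Levels of different members are compared here only per length, as CPM per kilobase of transcript for RNA and per kilobase of coding sequence for RPFs and disomes. In WT kidney Ribo-seq the levels ran from 4.61 CPM per kb for Rpl21 to 173 for Rpl38, with a median of 64.1, and in WT brain Ribo-seq from 5.64 for Rpl7a to 192 for Rpl38, with a median of 52.7. Rpl38, a small surface protein whose loss in mice alters the patterning of the axial skeleton, thus had the highest RPF level in both tissues. Proteins of a subunit are present in equal numbers in an assembled ribosome, apart from the paired stalk proteins. The RPF levels spanned 37.6-fold in kidney and 34.0-fold in brain. Each level is that of the chosen transcript and not of the whole gene. The lowest members, Rpl21 in kidney and Rpl7a in brain, have a median of 20 and 16 copies elsewhere per 50-base window, against 2 for Rpl38. What copying and the choice of transcript contributed to the spans was not tested, so they are not read as unequal synthesis.

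RPF levels of the members in the 2 tissues followed each other closely (Pearson's r = 0.94 and Spearman's rho = 0.91 across 44 members, on the log2 scale). RNA levels did not (r = 0.24, rho = 0.18). In WT brain RNA the members lay between 13.8 CPM per kb for Rpl18 and 441 for Rplp1, a 31.9-fold range. The transcript used for Rpl18 is the longest among the members, with 2989 bases (564 of them coding) against a median of 870.5. What this length contributed to its place was not tested. In WT kidney RNA they lay between 1.23 for Rpl36a and 361 for Rplp1, a 294-fold range, in the libraries with the small share of pseudogene counts. These correlations are across genes of the same libraries, which are not independent replicates.

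**Figure D1:**
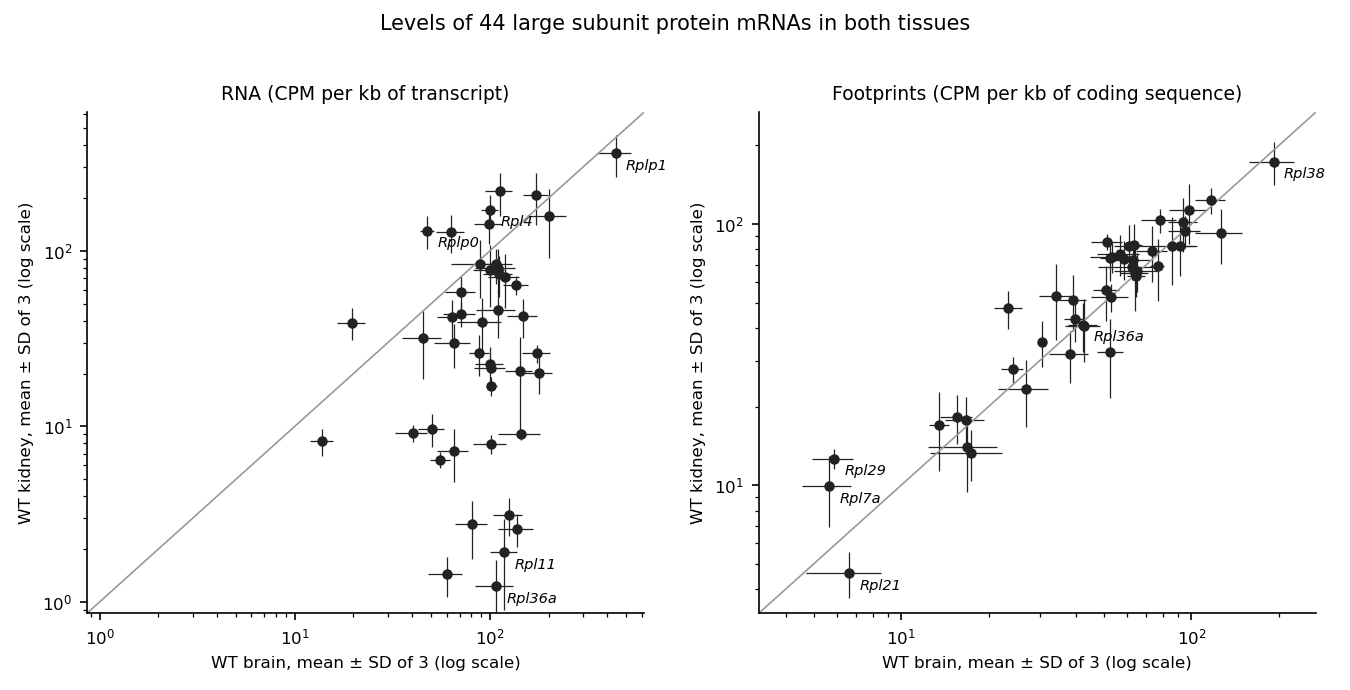
Each point is 1 of the 44 members, with its mean level in WT brain on the horizontal axis and in WT kidney on the vertical axis, both as CPM per kilobase on log axes, for RNA (per kilobase of transcript) and RPFs (per kilobase of coding sequence), n = 3 libraries per tissue. The RPF levels lie along the diagonal with r = 0.94, and the RNA levels scatter far below it for many members, with r = 0.24.

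The first question was whether loss of Rpl41 changed the mRNAs of its partner proteins. In kidney RNA, 39 of the 44 members had a higher mean in KO than in WT. Their log2 differences had a median of 0.49, from -0.26 for Rpl10 to 0.98 for Rpl38, against a median of -0.03 over all 70545 transcripts tested. No member passed the threshold of an adjusted p of 0.05 (edgeR's quasi-likelihood F-test, p adjusted by Benjamini and Hochberg's method across the whole table, adjusted p from 0.292 to 0.946), where 0.00992% of all transcripts did. DESeq2 called 0 members as well, and 13 of 44 had an unadjusted p under 0.05 in edgeR, against 16.8% of all transcripts. With scaling by library size alone the members' median was 0.31 and that of all transcripts -0.19, so the distance between the members and all transcripts was about the same under both scalings while the zero line moved.

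Rpl38 had 3.90, 4.46 and 4.02 CPM in the 3 WT kidney RNA libraries and 4.98, 8.64 and 10.9 in the KO ones. All 3 KO values lay above all WT values, with the first KO library nearest to WT (log2 difference 0.98 ± 0.29, SE, n = 3 per group; adjusted p = 0.292 in edgeR). Rplp1, an acidic stalk protein, had 178, 229 and 133 CPM in WT and 232, 344 and 344 in KO, again without overlap (0.77 ± 0.24, adjusted p = 0.292). Its stalk partner Rplp2 had 55.5, 69.4 and 43.6 CPM in WT and 73.3, 82.9 and 82.0 in KO (0.50 ± 0.18, adjusted p = 0.292). Rpl10, which reaches the tRNA sites and is among the last proteins added to the subunit, went the other way with 6.55, 6.07 and 7.76 CPM in WT and 6.07, 5.64 and 5.34 in KO, where the ranges touched (-0.26 ± 0.18, adjusted p = 0.430). Rpl38 and Rpl10 have every 50-base window copied elsewhere, against 63.1% in Rplp1 and 66.2% in Rplp2. In WT brain RNA, Rpl38 had 48.0 to 76.8 CPM and Rpl10 67.6 to 96.6, far above their WT kidney values. What copying contributed to their kidney RNA values was not tested. In 5 of 44 members, Rpl27, Rpl36, Rpl38, Rplp1 and Rplp2, the KO values all lay above the WT values, as they did for 10.1% of all transcripts.

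The height of the members in a kidney RNA library moved with another measure of that library. The members' share of the counts was 0.261%, 0.307% and 0.191% in WT and 0.272%, 0.375% and 0.333% in KO, while the share of mitochondrial ribosomal RNA was 0.686%, 0.962% and 0.436% in WT and 0.754%, 1.77% and 1.67% in KO, and the 6 libraries had the same order by both shares. All 6 kidney markers were detected in every kidney RNA library, and they summed to more in KO (16150 to 20340 CPM) than in WT. The 3 fat markers, none of them at 0, summed to 4.25 to 7.74 CPM in WT and 2.39 to 3.15 in KO. The part of these in the members' difference was not tested. Without the first KO library, 13 members passed as higher, against 7.29% of all transcripts, among them Rpl38 (log2 difference 1.24, adjusted p = 0.0135), while the count over all transcripts went from 7 to 12466. Without the other 2 KO libraries, the members' median log2 difference was 0.12. The mitochondrial share lay within the WT range in the first KO library and above all WT libraries in the other 2.

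By role, the differences in kidney RNA were uneven. The 7 exit tunnel proteins had a median log2 difference of 0.51, from -0.08 to 0.92, the highest being Rpl39, a short protein that lines the tunnel. The 4 stalk proteins had a median of 0.38 with all 4 above 0, and Rpl5 and Rpl11, which carry the 5S rRNA and bind Mdm2 when they are outside the ribosome, had 0.30 ± 0.22 and 0.43 ± 0.52. The 2 bridge proteins Rpl19 and Rpl24 had a median of 0.03 and the 4 proteins at the catalytic and tRNA sites (Rpl3, Rpl10, Rpl10a and Rpl36a) 0.05. Rpl22 and Rpl29, of which mice can do without either, had 0.62 and 0.48. The 22 members with no named role had a median of 0.59, with 21 of them above 0, which was higher than that of the exit tunnel or the stalk. None of these members passed the threshold. Of the bridge, catalytic and tRNA site proteins, all but Rpl3 (95.7%) have every 50-base window copied elsewhere. So have Rpl5, Rpl11, Rpl12, Rpl17, Rpl23a and Rpl38 among the other roles. By share of copied windows, the members' median was 0.62 under 85%, 0.48 from 85% to under 100% and 0.31 at 100%. What copying or the length of the coding sequence contributed to the differences by role was not tested.

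The difference in kidney RNA followed the length of the coding sequence, which runs from 153 to 1257 bases among the members with a median of 475.5. Across the 44 members the log2 difference was lower at greater coding length (rho = -0.67), and across all other coding genes the same correlation was -0.14. Other genes of the same length also had medians above 0. Among coding sequences over 300 and up to 500 bases, the 21 members had a median of 0.58 and the 919 other genes 0.28, and at up to 300 bases the 4 members had 0.93 and 318 other genes 0.35. The members are mostly short, and what length contributed was not tested further.

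**Figure D2:**
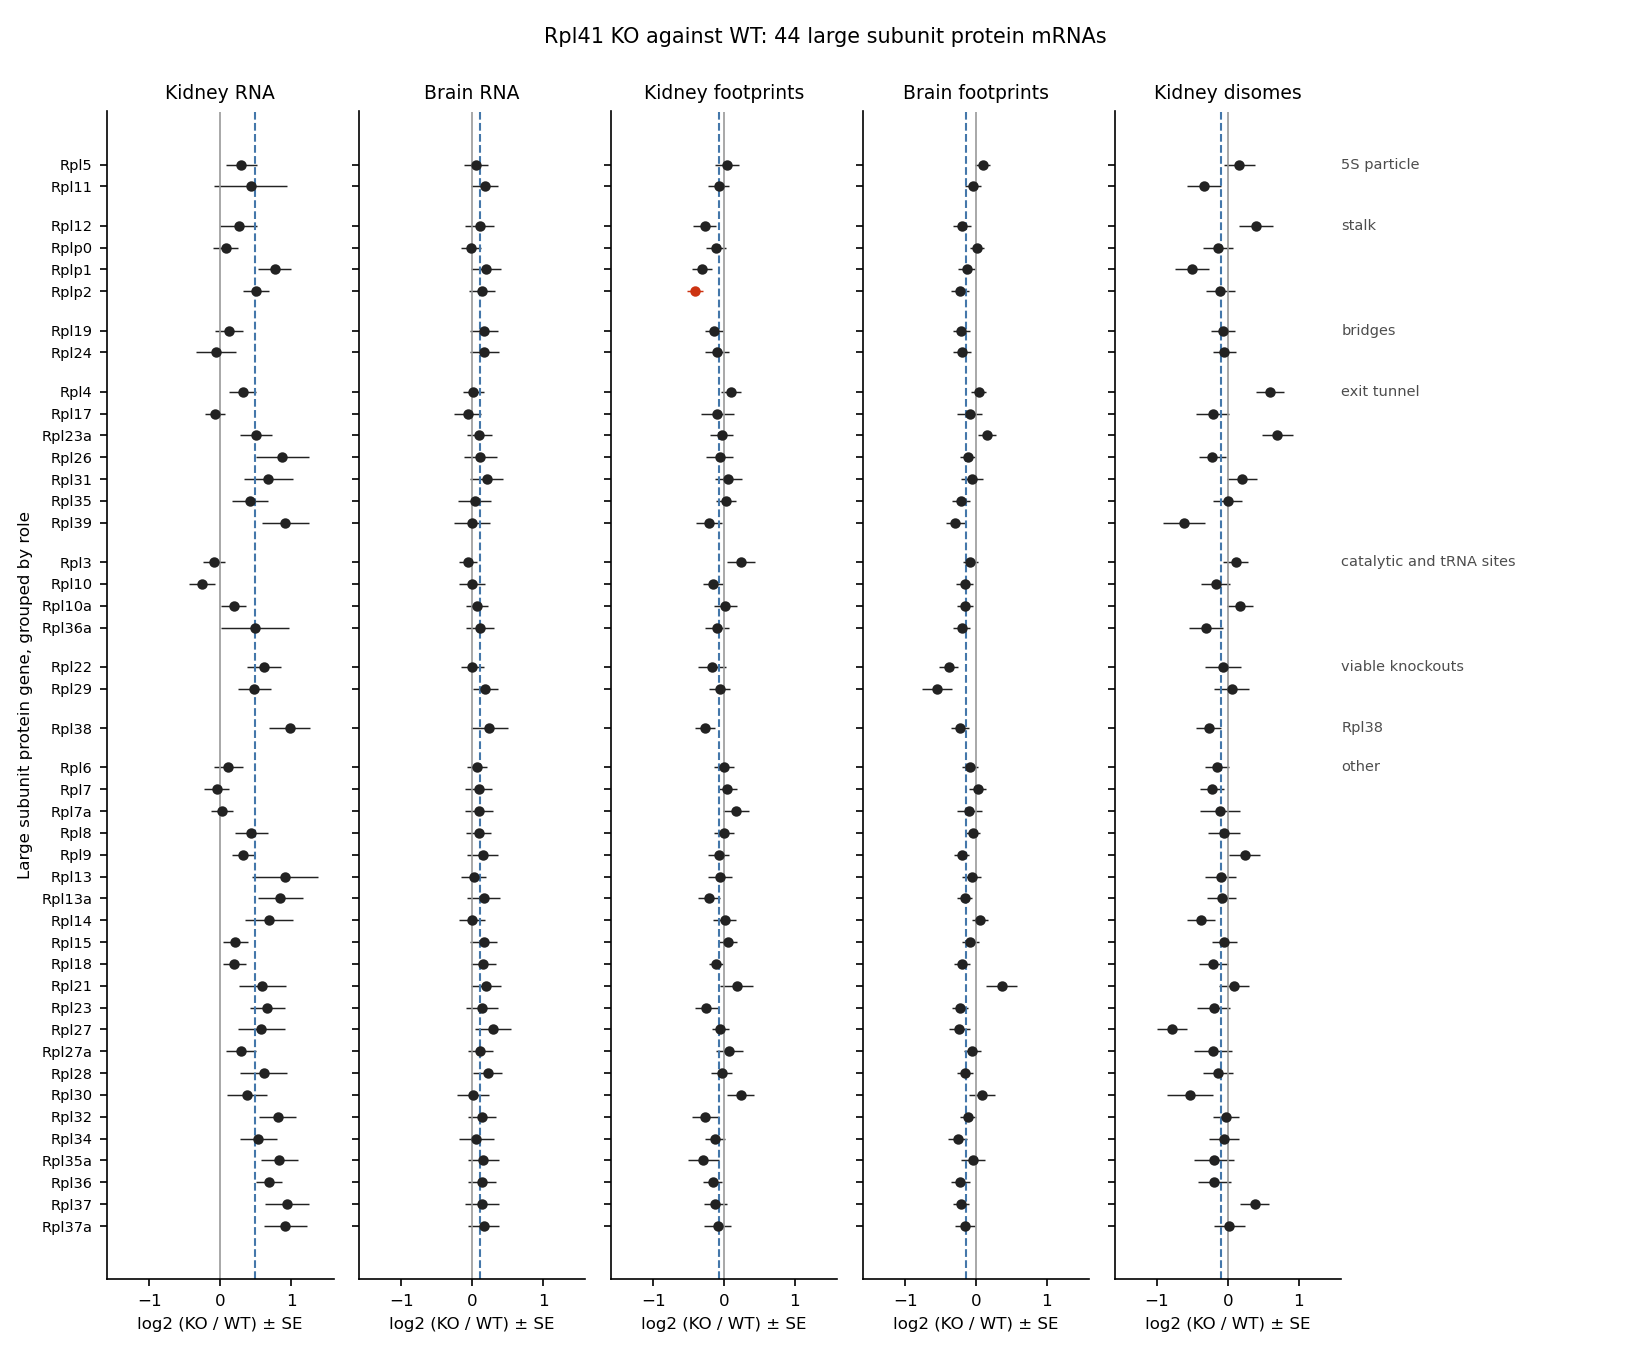
Log2 difference between KO and WT (horizontal axis, points with SE, n = 3 libraries per group) for each of the 44 members, ordered by role on the vertical axis, in the 5 kinds of library (RPFs are labelled footprints). The dashed line is the members' median, which is 0.49 in kidney RNA, 0.12 in brain RNA, -0.08 in kidney RPFs, -0.14 in brain RPFs and -0.10 in kidney disomes, and the red point is Rplp2 in kidney RPFs, the only member past the threshold.

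In brain RNA the shift was smaller. There, 38 of 44 members had a higher mean in KO, with a median log2 difference of 0.12, from -0.06 for Rpl17 to 0.30 for Rpl27. No member passed (edgeR, adjusted p from 0.898 to 0.999, 0.0134% of all 89237 transcripts called), 0 of 44 had an unadjusted p under 0.05 against 3.46% of all, and DESeq2 called 0. The median went to -0.03 without the third WT library and to -0.02 without the second KO library, so its sign rested on single libraries. The 5 blood markers, none of them at 0, summed to 700.5 to 2410 CPM in WT brain RNA and 379.8 to 795.4 in KO, and the 6 brain markers to 2753 to 3302 in WT and 3191 to 3806 in KO. By value all 5 blood markers were lower (median log2 difference -1.28) and all 6 brain markers higher (0.23). Their part in the members' values was not tested. Among coding sequences over 300 and up to 500 bases, the 21 members had a median of 0.14 and 1087 other genes 0.15. Rpl38 had 76.8, 73.9 and 48.0 CPM in WT and 51.9, 98.6 and 84.6 in KO, and the groups overlapped.

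The difference between the tissues was tested as an interaction of genotype and tissue. For RNA, the test passed for no member (edgeR, adjusted p from 0.587 to 1.000, 0.00108% of 92865 transcripts called), although 35 of 44 had the larger difference in kidney, with a median of 0.31 on the log2 scale. For RPFs, 27 of 44 had the larger value in kidney with a median of 0.05, and again 0 passed (adjusted p from 0.678 to 1.000, 0.0767% of 88666 called). None of the 44 had an unadjusted p under 0.05 in either interaction, where 8.47% and 7.63% of all transcripts did, and DESeq2 called 0 members in both.

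RPFs were compared between the genotypes in the same way. In kidney RPFs, 13 of 44 had a higher mean in KO, and the median log2 difference was -0.08. Rplp2 was the only member to pass, as lower in KO, where 3.01% of all 75266 transcripts were lower and 4.75% higher. It had 40.4, 39.0 and 48.2 CPM in the WT libraries and 29.9, 30.9 and 35.0 in the KO ones, with no overlap between the groups (log2 difference -0.41 ± 0.12, adjusted p = 0.0497 in edgeR). It was the 1 member of 44 whose KO values all lay below the WT values, as they did for 14.3% of all transcripts. This call lay at the threshold. It was lost with DESeq2 (adjusted p = 0.0533), with counts summed per gene (0.0932) and on leaving out any of the 6 libraries (0.0691 to 0.177). Among all transcripts the split of higher against lower calls was 3573 to 2265 under the main scaling, 1531 to 2543 with library size alone and 2540 to 957 with DESeq2.

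The other 3 stalk proteins also lay below 0 in kidney RPFs without passing, as did most members. Rplp1 had -0.31 ± 0.14, Rpl12 -0.27 ± 0.16 and Rplp0, the scaffold that anchors the other stalk proteins, -0.12 ± 0.14. The coding sequences of Rplp1, Rplp2 and Rpl12 are over 300 and up to 500 bases long, where 948 other genes had a median of -0.25. That of Rplp0 is over 750 and up to 1000 bases long, where 1544 other genes had -0.10. The largest value above 0 was that of Rpl3, which extends to the peptidyl transferase centre, with 37.2, 27.2 and 53.0 CPM in WT and 46.5, 38.6 and 53.2 in KO (0.24 ± 0.19, adjusted p = 0.476). The sign of the members' median was not firm, with 0.10 without the third WT library and 0.04 without the second KO library. In the same RPF libraries, 11 markers of pancreatic acinar cells summed to 14.3 to 337 CPM in WT and 7.62 to 9.82 in KO, with at most 1 of them at 0 in a library, and 5 immune markers to 11.4 to 19.0 in WT and 22.1 to 25.6 in KO. Their part in the members' values was not tested.

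**Figure D3:**
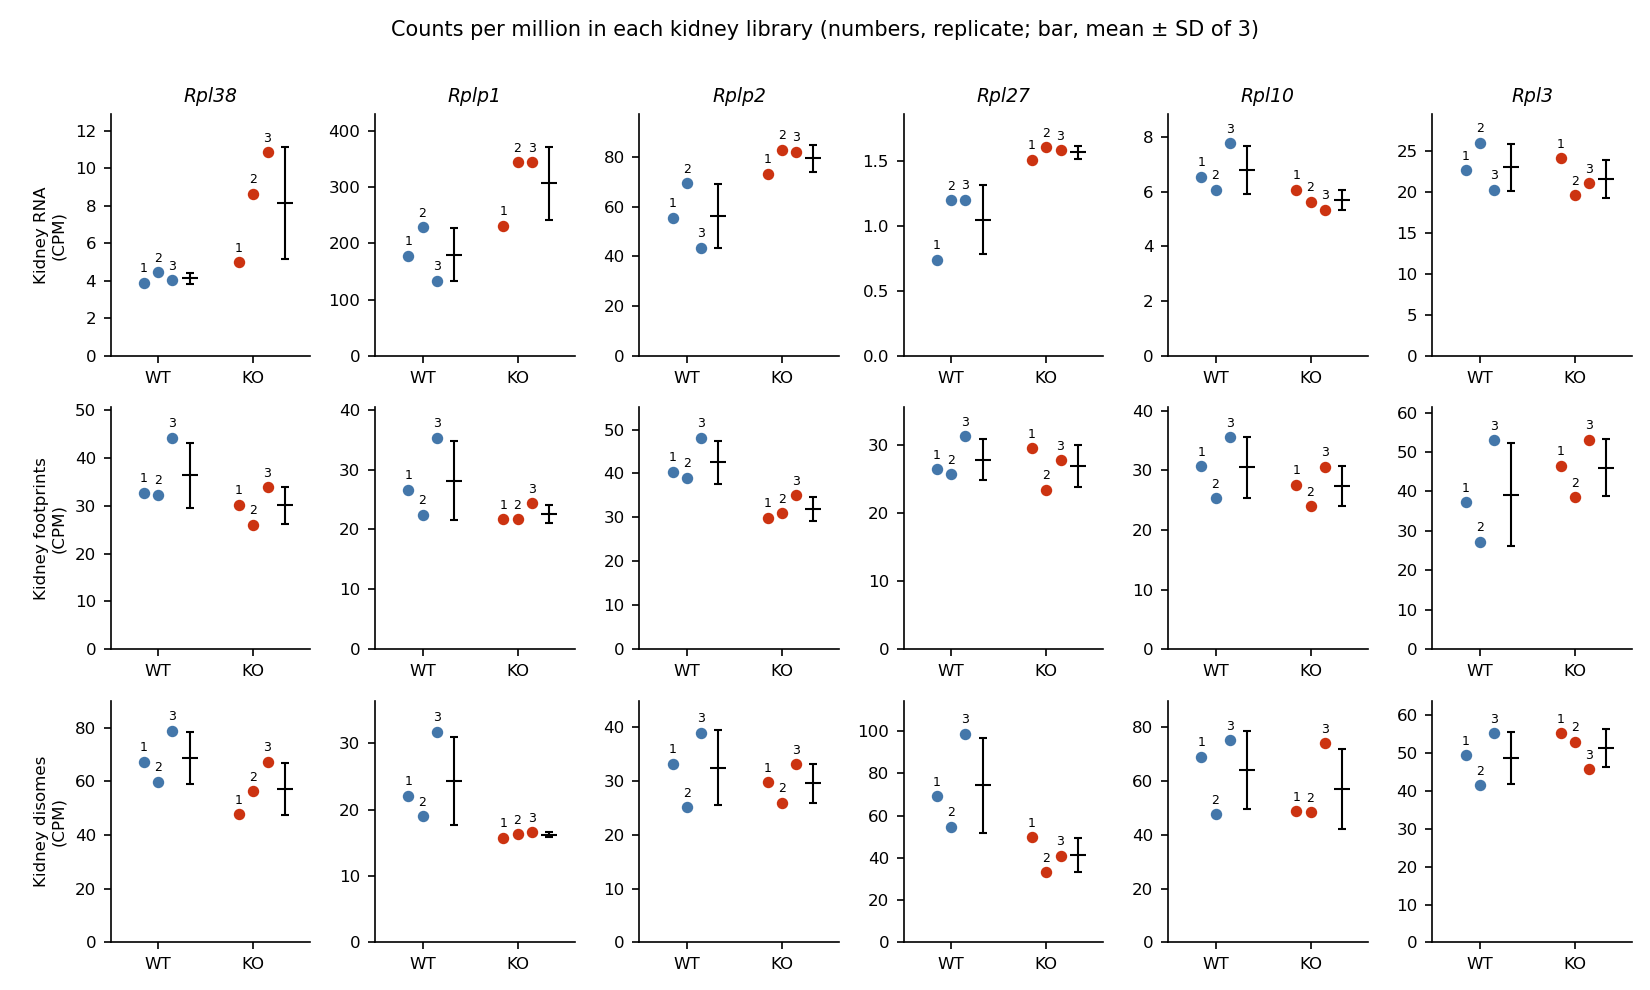
Levels in CPM (vertical axes, from 0) of Rpl38, Rplp1, Rplp2, Rpl27, Rpl10 and Rpl3 in each WT and KO kidney library of RNA, RPFs and disomes, with points for the 3 libraries and the mean ± SD. Rplp2 lies higher in KO than in WT in RNA (73.3 to 82.9 against 43.6 to 69.4) and lower in RPFs (29.9 to 35.0 against 39.0 to 48.2).

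In brain RPFs, 8 of 44 members had a higher mean in KO, with a median log2 difference of -0.14, from -0.56 for Rpl29 to 0.36 for Rpl21. No member passed (edgeR, adjusted p from 0.290 to 0.966, 0.0345% of all 81112 transcripts called), 2 of 44 had an unadjusted p under 0.05 against 12.6% of all, and DESeq2 called 0. Rpl22 had 11.5, 14.8 and 13.1 CPM in WT and 10.8, 10.4 and 8.66 in KO, so the KO values all lay below the WT values (-0.38 ± 0.13, adjusted p = 0.290). Rpl29 had 3.04, 3.13 and 2.29 in WT and 1.76, 1.65 and 2.29 in KO, where the highest KO and the lowest WT library met (-0.56 ± 0.21, adjusted p = 0.321). In 6 members (Rpl9, Rpl18, Rpl22, Rpl34, Rpl36a and Rpl37) all KO values were below all WT values, as for 8.7% of all transcripts. The 5 blood markers, none of them at 0, summed to 636 to 1841 CPM in WT brain RPFs and 346 to 443 in KO, and their part in these values was not tested.

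RPF differences also ran with coding length, in the opposite sense to RNA. Longer members had the higher log2 difference in kidney RPFs (rho = 0.50 across members, 0.42 across other genes) and in brain RPFs (0.50 and 0.34). In the class over 300 and up to 500 bases, the members' median was -0.10 in kidney against -0.25 for 948 other genes, and -0.20 in brain against -0.21 for 956 other genes. Members of this length lay above other genes of their length in kidney RPFs, and both medians were close in brain RPFs.

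**Figure D4:**
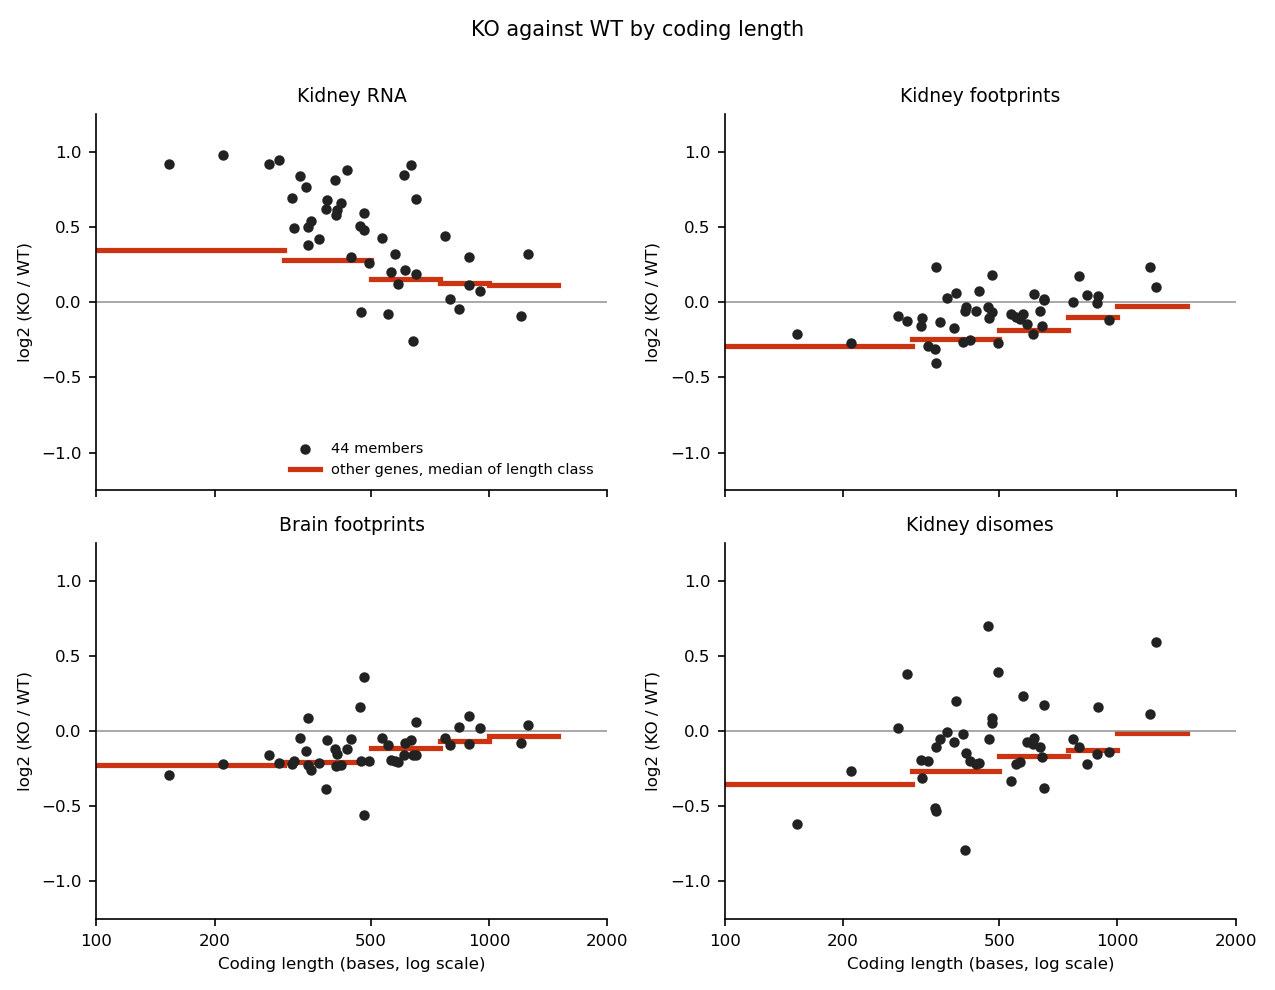
Log2 difference between KO and WT for each member (points) against coding length in bases on a log axis, in kidney RNA, kidney RPFs, brain RPFs and kidney disomes, where red bars give the median of other genes in each class of length. The differences are lower at greater length in kidney RNA (rho = -0.67) and higher in RPFs (rho = 0.50 in both tissues), and the medians of other genes run the same way.

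Translation efficiency (TE), the change in RPFs relative to the change in RNA, was higher in KO kidney for 4 of 44 members by value and lower for the rest, with a median log2 difference of -0.52, from -1.26 for Rpl38 to 0.32 for Rpl3. Both have mostly copied coding sequences (100% and 95.7% of 50-base windows), so the limit on kidney RNA of copied members applies to these values. No member passed (edgeR, adjusted p from 0.124 to 0.984), and neither did any of the 89685 transcripts tested (0.0% called). With RiboDiff, a test that was not run here, the paper reported significant TE changes for many transcripts in kidney and in brain. Of the members 12 of 44 had an unadjusted p under 0.05, against 18.9% of all transcripts. DESeq2 called 4 members lower, Rpl36, Rplp1, Rplp2 and Rpl38 (log2 difference -0.94, -1.17, -0.99 and -1.35, adjusted p = 0.0483, 0.0470, 0.0243 and 0.0268), where it called 1831 of 89685 transcripts lower (2.04%) and 2258 higher. Without the first KO RNA-seq library, 11 members passed as lower, against 5.14% of all transcripts, and without the other 2 KO RNA-seq libraries the median was -0.20. Against genes of the same length, over 300 and up to 500 bases, the members' median was -0.64 and that of 1115 other genes -0.53. At up to 300 bases the 4 members had -1.10 and 355 other genes -0.63. Above 500 bases the members lay higher than other genes: -0.31 against -0.35 up to 750 bases, -0.15 against -0.23 up to 1000 and 0.05 against -0.15 up to 1500.

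In brain, TE had a median log2 difference of -0.22, with the lowest value for Rpl29 (-0.70 ± 0.29, adjusted p = 0.895). No member passed (edgeR, 0.0% of 98861 transcripts called), 1 of 44 had an unadjusted p under 0.05 against 4.73% of all, and DESeq2 called 0. Over 300 and up to 500 bases of coding sequence, the members' median was -0.27 and that of 1171 other genes -0.32.

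Disomes mark places where a ribosome has run into the one ahead. In kidney disomes the members' median log2 difference between KO and WT was -0.10, from -0.79 for Rpl27 to 0.70 for Rpl23a. No member passed (edgeR, adjusted p from 0.142 to 0.996, 0.201% of 34754 transcripts called), 5 of 44 had an unadjusted p under 0.05 against 10.8% of all, and DESeq2 called 0. Rpl27 had 69.1, 54.7 and 98.8 CPM in WT and 49.7, 33.3 and 40.9 in KO, with all KO values below WT (-0.79 ± 0.21, adjusted p = 0.142). It did pass with no filter on low counts (0.0144) and without the second WT library (log2 difference -0.97, adjusted p = 0.0204). In 3 members, Rpl14, Rpl27 and Rplp1, all KO disome values lay below all WT values, as for 8.9% of all transcripts.

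Rpl23a and Rpl4, which lie at the exit of the tunnel and along it, had the highest values in disomes. Rpl23a had 32.2, 29.2 and 28.1 CPM in WT and 32.0, 64.8 and 51.7 in KO, and Rpl4 79.9, 78.9 and 79.8 in WT and 76.1, 160 and 127 in KO. In both genes the first KO library stayed at the WT level and the other 2 lay above it, and without that library both passed (log2 difference 0.97 and 0.86, adjusted p = 0.0298 and 0.0235). The disome libraries were the shallowest of the 30, which limits this comparison. The 5 blood markers summed to 288 to 322 CPM in WT disomes and 160 to 231 in KO, with at most 1 at 0 in a library, and their part in these values was not tested. Disomes relative to monosome RPFs had a median log2 difference of 0.00 between KO and WT, with 0 members called (edgeR, adjusted p from 0.788 to 1.000, 0.0% of 67065 transcripts) and 3 of 44 at an unadjusted p under 0.05, against 5.84% of all, while DESeq2 called 0.

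The comparison of tissues within WT showed a wide split between RNA and RPFs. CPM was scaled within each tissue and kind of library, and the log2 differences over both groups together. Where tissues or kinds of library are compared, the CPM printed beside a log2 difference therefore need not give that difference. Statements on overlap and on every library are by CPM. In kidney RNA relative to brain RNA, 6 members were higher and 24 lower, where 28.3% of all 88731 transcripts were higher and 35.8% lower, and the members' median log2 difference was -0.88 against -0.20 for all. Rplp0 had 187, 209 and 135 CPM in kidney and 68.4, 67.8 and 58.8 in brain (1.74 ± 0.21, adjusted p = 4.96e-05 in edgeR). Rpl4 had 272, 314 and 204 in kidney and 158, 168 and 137 in brain (1.07 ± 0.22, adjusted p = 0.00149). Both were higher in every kidney library, and Rpl32 (1.32), Rpl22 (1.29), Rpl8 (1.26) and Rpl7 (0.81) were higher too. At the other end, Rpl36a had 0.371, 0.553 and 0.858 CPM in kidney and 58.8, 58.7 and 39.0 in brain (-6.18 ± 0.32, adjusted p = 7.64e-08). Rpl11 had 1.64, 2.44 and 0.735 in kidney and 106, 110 and 80.9 in brain (-5.64 ± 0.40, adjusted p = 8.24e-07), and Rpl31 was lower too (-5.43 ± 0.27).

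RPFs of the same members did not show this split. Rpl36a had 11.8, 11.2 and 16.3 CPM in kidney RPFs and 12.8, 15.2 and 12.4 in brain RPFs, and the groups overlapped (0.08 ± 0.16, adjusted p = 0.682). Rpl11 had 34.9, 35.8 and 47.0 in kidney and 27.8, 33.9 and 32.1 in brain. The RNA difference followed how much of the coding sequence is copied elsewhere: across the 44 members, rho with the share of copied 50-base windows was -0.85 in RNA and -0.07 in RPFs. The 15 members with under 85% of windows copied had a median log2 RNA difference of 0.01, with 6 higher and 2 lower, the 11 members with 85% to under 100% had -0.45, with 0 higher and 5 lower, and of the 18 members with every window copied 17 were lower, with a median of -2.83. The edges of these classes were chosen after the values were seen. The small share of pseudogene counts in the kidney RNA-seq libraries and the tissue cannot be told apart in this comparison, because every kidney RNA library has both.

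**Figure D5:**
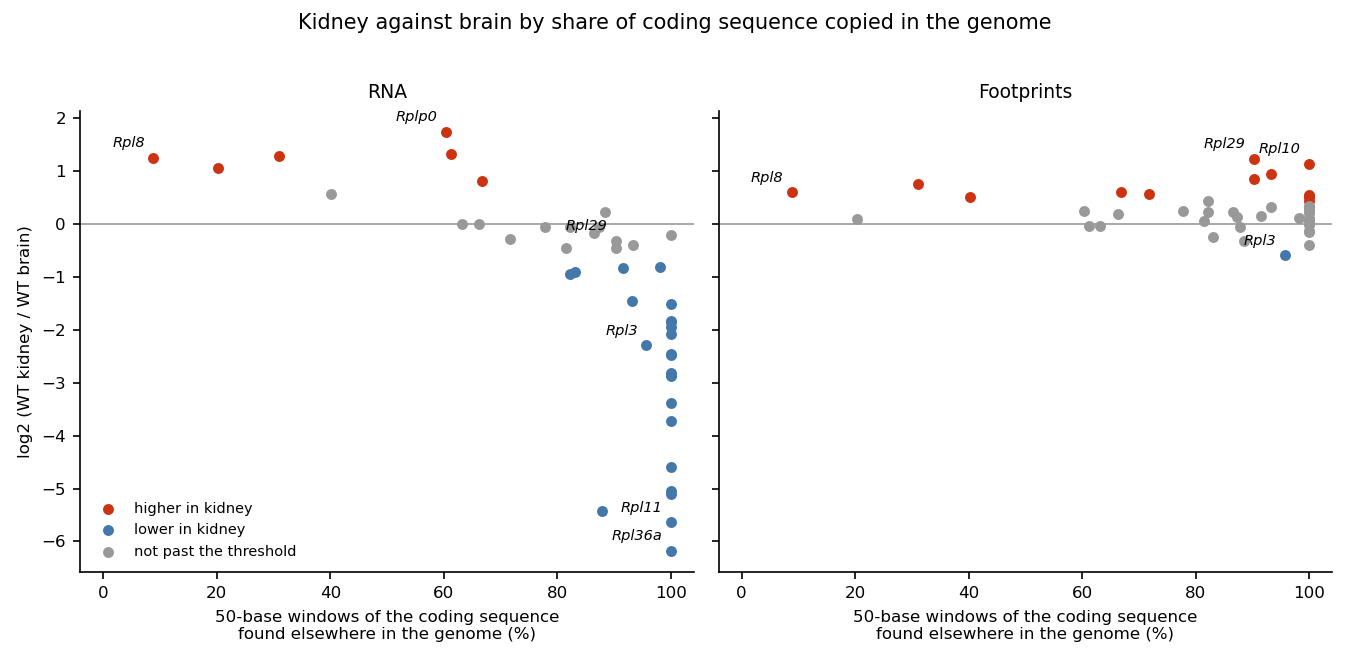
Log2 difference between WT kidney and WT brain for each member (vertical axis) against the percentage of 50-base windows of its coding sequence that occur elsewhere in the genome (horizontal axis), for RNA and for RPFs, n = 3 libraries per tissue. In RNA the values drop to between -0.21 and -6.18 for the 18 members at 100%, and in RPFs they stay between -0.58 and 1.23 at all percentages.

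In RPFs, 14 members were higher in kidney and 1 lower, where 35.0% of all 82957 transcripts were higher and 35.8% lower, and the median log2 difference was 0.24. Rpl29 had 5.81, 5.71 and 6.68 CPM in kidney and 3.04, 3.13 and 2.29 in brain, the largest difference (1.23 ± 0.18, adjusted p = 2.97e-05). Rpl10 had 30.6, 25.3 and 35.6 in kidney and 16.0, 16.0 and 13.1 in brain (1.14 ± 0.15, adjusted p = 9.12e-06). Neither overlapped between the tissues. Rpl22 (0.76 ± 0.20), Rpl10a (0.56 ± 0.16) and Rpl19 (0.53 ± 0.13) also passed. Rpl5 (0.51 ± 0.17) and Rpl11 (0.44 ± 0.15) passed together, and both calls were lost without the first WT brain library (adjusted p = 0.0508 and 0.0776) or the third WT kidney library (0.0562 and 0.0561). Rpl3 was the member that was lower in kidney (-0.58 ± 0.20, adjusted p = 0.0161), with 37.2, 27.2 and 53.0 CPM against 56.8, 69.7 and 64.0 in brain, and lost the call without the first (0.0522) or the second (0.0801) WT kidney library.

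TE in kidney relative to brain carried the RNA difference with the opposite sign: 27 members were higher and 3 lower, where 13.9% and 5.99% of all 96684 transcripts were, and the median log2 difference was 1.5. The highest values belonged to Rpl36a (6.42 ± 0.37), Rpl11 (6.25 ± 0.42) and Rpl31 (5.53), and the lower ones to Rplp0 (-1.32 ± 0.26, adjusted p = 0.00201), Rpl32 (-1.18 ± 0.31, adjusted p = 0.0138) and Rpl4 (-0.81 ± 0.26, adjusted p = 0.0385). Across members, rho with the share of copied windows was 0.83, and the median was 0.13 in the class under 85% and 3.16 in the class at 100%. The call of Rpl4 was lost with replicates as blocks (adjusted p = 0.0568) and without any of 6 libraries, the first or the third brain RNA, the first or second kidney RPF and the first or second kidney RNA library (0.0599 to 0.114). With DESeq2, 25 members were higher and 3 lower, where 12.4% and 11.4% of all transcripts were, and over all transcripts the split of higher against lower calls was 11963 to 11068, against 13402 to 5791 in edgeR.

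Within WT brain, all 44 members had fewer RPFs than RNA on the log2 scale of CPM, where 35.5% of all 94029 transcripts were lower, with a median log2 difference of -1.96. The lowest was Rpl21 with 2.14, 3.89 and 3.5 CPM in RPFs and 93.9, 97.7 and 62.9 in RNA (-5.12 ± 0.26, adjusted p = 9.45e-09 in edgeR). The nearest to 0 was Rpl10a, a protein of the L1 stalk at the tRNA exit site, with 36.2, 44.3 and 38.1 in RPFs and 48.7, 49.9 and 39.9 in RNA (-0.57 ± 0.15, adjusted p = 0.00384), and this call was lost with library size alone and with 1 transcript per gene. The difference ran with the number of copies: rho with the median number of copies of a 50-base window was -0.65. RPFs come from coding sequence alone and RNA reads from the whole transcript, and the fragments differ in length, so this is a comparison of 2 kinds of library and not a rate.

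In WT kidney the same comparison gave 11 higher and 27 lower (38.5% and 33.3% of all 82866 transcripts), with a median of -0.97. Under scaling by library size alone the split was 15 to 22 (45.4% and 24.7% of all transcripts), and over all transcripts 37611 to 20454 against 31888 to 27574. In the class with under 85% of windows copied, all 15 members were lower, with a median of -2.40, and in the class at 100%, 9 were higher and 5 lower, with a median of 0.63. Rpl27 had the highest value, 26.5, 25.7 and 31.4 CPM in RPFs and 0.741, 1.2 and 1.21 in RNA (4.30 ± 0.23, adjusted p = 7.68e-07), and Rpl21 the lowest, 2.05, 1.88 and 2.72 in RPFs and 62.3, 82.8 and 33.4 in RNA (-5.20 ± 0.38, adjusted p = 4.83e-06). Rpl21 thus had few RPFs for its RNA in both tissues. It was also the member with the most copies, with a median of 20 per 50-base window and 37 per 28-base window.

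Disomes relative to RPFs in WT kidney were higher for 24 members and lower for 4, where 25.3% of all 64608 transcripts were higher and 25.3% lower, with a median log2 difference of 0.56. Rpl21 had 23.9, 20.1 and 26.3 CPM in disomes and 2.05, 1.88 and 2.72 in RPFs (3.38 ± 0.21, adjusted p = 3.30e-09), and Rpl31, at the tunnel exit, had 38.4, 28.6 and 48.0 against 9.09, 6.45 and 11.7 (2.02 ± 0.21, adjusted p = 1.06e-06). Disome values lay above RPF values in every library for both. Rplp0 had 29.4, 22.1 and 27.2 in disomes and 42.7, 33.1 and 47.9 in RPFs (-0.66 ± 0.18, adjusted p = 0.00541), and Rpl13a had -0.66 ± 0.17. Rpl18 (-0.44 ± 0.16) and Rplp2 (-0.43 ± 0.17) passed with all libraries, and both calls were lost without the third WT RPF library (adjusted p = 0.0630 and 0.0995) or the second WT disome library (0.164 and 0.207), and that of Rplp2 also without the first WT RPF library (0.0645). Both were also lost with 1 transcript per gene (0.133 and 0.170) and with counts summed per gene (0.0779 and 0.411), where the value of Rplp2 was -0.17. Across members, rho with the median number of copies of a 50-base window was 0.73. A disome fragment is longer than an RPF, and the part of fragment length in these values was not tested.

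Related genes gave a point of reference in the comparisons of genotype. Of the small subunit proteins, 15 of 31 tested had an unadjusted p under 0.05 in kidney RNA (edgeR), against 16.8% of all transcripts. The list's median log2 difference was 0.69, against 0.49 for the large subunit, 0.25 for the other TOP mRNAs and 0.18 for the 60S assembly factors. In kidney TE the medians were -0.69, -0.52, -0.10 and -0.04 in the same order. In brain TE they were -0.23, -0.22, 0.07 and 0.10. Of the 60S assembly factors, 5 of 28 were higher and 1 lower in kidney RPFs, where 4.75% of all transcripts were higher and 3.01% lower. These medians are a description, with no test between the lists and no account of coding length.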

How the data were processed

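RNA-seq, Ribo-seq and disome-seq of WT and KO mouse kidney and brain (disome-seq of kidney only) were analysed from 30 libraries of 74 samples in the series. The other samples, of HEK293T cells, were not analysed here. The authors trimmed adapters with cutadapt and FASTX Toolkit, removed rRNA reads with STAR, aligned the rest with STAR to the mouse transcriptome of GRCm38, allowed reads that match several places, and deposited whole-number counts per transcript from featureCounts (Subread). Versions are not given in the sources used here. The small share of pseudogene counts in kidney RNA-seq leaves it unknown whether reads matching several places were kept there as in the other libraries, which limits kidney RNA levels of copied members and what is computed from them. Kept fragments were those of the length of 1 ribosome or, for disomes, of 2. Totals per library ranged from 1187636 to 123745890, and rare transcripts in disome-seq are the least precise. No 2 libraries held identical values.

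Of 142604 transcripts, 141374 matched the GENCODE annotation. Counts were tested with edgeR 4.0.16 (quasi-likelihood F-test, filterByExpr, TMM scaling within each of 16 comparisons, R 4.3.3), p-values adjusted by Benjamini and Hochberg's method across the whole table and a threshold of 0.05. TE and disomes per monosome were interaction terms. CPM values were scaled by TMM within a tissue and kind of library. Log2 differences between tissues or kinds of library were scaled over both groups together, so they can differ from what the printed CPM would give. SE is the size of the log2 difference divided by the square root of F. Copied windows were counted as exact matches of 28 or 50 bases on both strands of the genome. The code was tested on simulated data. The remaining steps ran in Python 3.11.15 with pandas 2.3.3 and numpy 2.4.6, and figures were drawn with matplotlib 3.10.9.

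The members, the other gene lists and the roles were chosen with earlier results of these data known. Genes were named by role (5S particle, stalk, bridges, exit tunnel, catalytic and tRNA sites, viable knockouts and Rpl38), together with up to 3 largest rises and falls among called members in each comparison, or the largest of each by value where none was called. Genes named outside this rule, such as Rpl7, Rpl8, Rpl9, Rpl14 and Rpl36, were picked once their values had been seen. The alternatives tried were scaling by library size, DESeq2 1.42.0, other filters on low counts, other choices of transcript, sums per gene, a block for the replicate number and leaving out each library.

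Replicate numbers were checked as pairs through the correlation of deviations from group means, with a minimum of 0.1. RPFs and RNA of the same number correlated in every pair of WT kidney (0.194 to 0.263), KO kidney (0.160 to 0.178) and WT brain (0.288 to 0.549), and RPFs and disomes in WT kidney (0.274 to 0.375), so the numbers pair these libraries. The minimum was not met in every number for RPFs and RNA in KO brain (-0.124 to 0.13) or RPFs and disomes in KO kidney (0.0964 to 0.178). The main tests used no block and treat paired libraries as independent, and the counts with a block are given below. Between genotypes no pair of groups met the minimum in every number. Between tissues KO RNA-seq did (0.148 to 0.31) and WT RNA-seq did not (0.0606 to 0.262). The comparisons of tissues used WT alone, or both genotypes in the interaction, so the numbers were not taken as pairs there.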

Additional observations from a re-analysis of the deposited data

Results flagged for a closer look

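The TE difference between WT kidney and WT brain was singled out because it compares the contrast of RPFs with RNA in 2 tissues and tests the difference itself: 27 members were higher in kidney and 3 lower (edgeR, adjusted p under the threshold). Rpl36a, Rpl11 and Rpl31 were the highest and Rplp0, Rpl32 and Rpl4 the lower ones. In the kidney RNA-seq libraries that enter this contrast, processed pseudogenes took 0.0267% to 0.0437% of the counts, against 1.46% to 1.81% in brain RNA-seq, and the members' TE difference had a rho of 0.83 with the share of copied windows. The part of either in the TE difference was not tested.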

How the results depend on the processing

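Of 6040 values of named members under alternatives, 5891 kept their direction and their side of the threshold or moved by less than 1 SE, 64 lost the call, 53 gained it, 32 without a call changed sign by more than 1 SE and 0 called values changed sign. Leaving out 1 library at a time gave 0 to 13 called members in kidney RNA, 0 in kidney RPFs, 0 to 2 in kidney disomes and 0 to 11 in kidney TE between KO and WT. In kidney RPFs 0 members were called with counts summed per gene, with a replicate block and with DESeq2. In kidney disomes 1 was called with no filter and 1 with the block (Rpl27, adjusted p = 0.0324). In kidney TE 1 was called with 1 transcript per gene (Rplp2, adjusted p = 0.0483) and 4 with DESeq2, and in disomes per monosome 1 with the block (Rpl27, adjusted p = 0.0293). The numbers did not all meet the minimum of 0.1 between WT and KO disomes (0.025 to 0.128) or between KO RPFs and KO disomes (0.0964 to 0.178). The calls of Rpl27 with the block therefore rest on numbers not shown to pair the libraries. Where the numbers pair the libraries, the block gave 29 called members for 30 in TE between tissues, 37 for 38 in kidney RPFs against RNA, 32 for 28 in disomes against RPFs, 44 for 44 in brain RPFs against RNA and 0 for 0 in kidney TE. The share of all transcripts called with the block is not given here, so these counts are not read as a result about the members. In disomes against RPFs, the calls over all transcripts ranged from 5965 to 39379 under other settings. The cause of these changes was not tested. Over all transcripts the calls between KO and WT depended more on the choices: from 7 in kidney RNA to between 0 and 465 under other settings and between 7 and 12466 without 1 library, from 12 in brain RNA to 0 to 23, from 5838 in kidney RPFs to 786 to 9936 and to 285 to 5843 without 1 library, from 28 in brain RPFs to 0 to 1573 and 15 to 79, from 70 in disomes to 8 to 278 and 32 to 173, and from 0 in kidney TE to 0 to 4089 and 0 to 16331. From 0 they reached up to 18 in brain TE and up to 207 in disomes per monosome. The interaction counts of 1 for RNA and 68 for RPFs went to 0 to 105 and 4 to 437 under other settings and to 0 to 6444 and 12 to 124 without 1 library. Between tissues and kinds of library in WT, settings with 1 transcript per gene or sums per gene test fewer features, and the calls went from 56852 to as few as 12450 in RNA, from 58777 to 11236 in RPFs, from 19193 to 4155 in TE, from 59462 to 9112 in kidney RPFs against RNA, from 68030 to 10948 in brain RPFs against RNA and from 32739 to 5965 in disomes against RPFs. Without 1 library the TE calls between tissues ranged from 14232 to 29077. The depth of disome-seq limits the comparisons that use it.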
